A study of Mus musculus with 16 samples.

Results

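Arteries taken 28 days after wire injury were compared with arteries taken 7 days after it, to ask which microRNA (miRNA) changes of the first week had gone back and which were still present 4 weeks after the injury. The comparison rests on all 4 arrays labelled day 28 and all 3 labelled day 7, 7 of the 16 arrays of the series, and on every mouse miRNA of the design: 611 had a probe and 321 were tested. The 3 arrays of uninjured arteries served as the reference from which a change at day 7 was measured. Each array held carotid artery RNA of female ApoE-/- mice on a C57BL/6 background, fed a western-type diet. ApoE-/- mice lack apolipoprotein E, which clears lipoprotein remnants from the blood, and are prone to atherosclerosis. The mice of all 3 groups were labelled 6 to 8 weeks old, and the diet and genotype were shared by injured and uninjured groups. The series concerns the neointima, the layer of cells and matrix that builds up on the inner face of an artery after such an injury, and its design names 3 to 4 animals per group. Whole arteries were measured, so all cell types of the vessel and of any attached tissue contribute.

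A miRNA is a short RNA that guides Argonaute proteins to messenger RNAs and lowers their output, and it recognises its targets mainly through its seed, the bases near its 5′ end. After wire injury the endothelium is lost, leukocytes enter the wall, smooth muscle cells leave the contractile state and divide, and the wall is later covered and remodelled. miRNAs made mainly in 1 cell type therefore report on that cell type, while miRNAs such as miR-21 and miR-146a are switched on by inflammatory and growth signals in many cell types. In a whole artery, fewer cells of a type and less miRNA per cell cannot be told apart.

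The mature sequences below are those of the miRNAs on which the results turn, read from RefSeq (build GRCm38.p6), with the seed (bases 2 to 8) in capitals. Of 66 array names looked up under their current names, 60 matched. miR-124, miR-376c, miR-30b, miR-30d, miR-23b and miR-34c did not.
The first set was low at day 7 and higher at day 28, and each has a seed of its own.
miR-338-3p (chr11:120014781-120014802, minus strand): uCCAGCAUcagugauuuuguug
miR-137 (chr3:118433901-118433923, plus strand): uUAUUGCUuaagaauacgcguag
miR-129-5p (2 loci, on chromosomes 2 and 6): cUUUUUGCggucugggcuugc
miR-138 (2 loci, on chromosomes 8 and 9): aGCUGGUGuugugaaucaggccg
miR-9* (now miR-9-3p; 3 loci, on chromosomes 3, 7 and 13): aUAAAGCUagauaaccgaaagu
miR-7b (chr17:56243017-56243040, plus strand): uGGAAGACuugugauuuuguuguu
miR-204 (chr19:22750610-22750631, plus strand): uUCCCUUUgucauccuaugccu
The second set was high at day 7 and lower at day 28, lies in 1 region of chromosome 12 and has different seeds. miR-431 lies apart from the others, which run from miR-379 to miR-377.
miR-431 (chr12:109590459-109590479, plus strand): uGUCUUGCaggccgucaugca
miR-379 (chr12:109709065-109709085, plus strand): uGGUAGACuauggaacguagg
miR-411 (chr12:109710190-109710210, plus strand): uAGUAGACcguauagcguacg
miR-376b (chr12:109723508-109723528, plus strand): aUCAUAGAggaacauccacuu
miR-154* (now miR-154-3p; chr12:109738474-109738495, plus strand): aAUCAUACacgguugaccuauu
miR-377 (chr12:109740553-109740574, plus strand): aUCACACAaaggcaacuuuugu
The third set shows miRNAs that have the same seed, or nearly the same, and moved in opposite directions: miR-195 and miR-497 rose, miR-322 and miR-503 fell.
miR-195 (chr11:70235062-70235082, plus strand): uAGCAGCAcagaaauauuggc
miR-497 (chr11:70234730-70234751, plus strand): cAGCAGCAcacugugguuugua
miR-322 (chrX:53054306-53054327, minus strand): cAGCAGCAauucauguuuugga
miR-503 (chrX:53054027-53054049, minus strand): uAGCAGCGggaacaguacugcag
The last set is of miR-30a, miR-30c and miR-30e, which share a seed and rose, and of miRNAs that were still high at day 28. Of the latter, miR-146a and miR-146b share a seed.
miR-30a (chr1:23272274-23272295, plus strand): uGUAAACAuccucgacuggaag
miR-30c (2 loci, on chromosomes 1 and 4): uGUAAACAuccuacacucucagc
miR-30e (chr4:120772660-120772681, minus strand): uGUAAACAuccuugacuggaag
miR-21 (chr11:86584120-86584141, minus strand): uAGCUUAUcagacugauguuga
miR-146a (chr11:43374435-43374456, minus strand): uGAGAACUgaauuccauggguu
miR-146b (chr19:46342790-46342811, plus strand): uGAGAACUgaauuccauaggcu
miR-155 (chr16:84714143-84714165, plus strand): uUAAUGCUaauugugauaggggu
miR-223 (chrX:96242884-96242905, plus strand): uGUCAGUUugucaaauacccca

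A level is given as the scaled log2 signal, the log2 of the probe's signal after division by the 75th percentile of its array, and a difference as day 28 minus day 7 on that scale with its standard error (SE). Levels are compared between arrays for 1 miRNA, never between miRNAs. The 75th percentile was 816.2 to 1214 intensity units at day 7, 566.5 to 1097 at day 28 and 401 to 624.1 in the uninjured group, and 307 to 332, 287 to 330 and 251 to 292 miRNAs were detected per array. Across miRNAs, which are no replicates, arrays correlated with r of 0.973 to 0.995 within day 7 and 0.955 to 0.983 within day 28. The mean r with the other day 28 arrays was 0.965, 0.962, 0.976 and 0.964 for replicates 1 to 4. All day 7 arrays and day 28 replicates 1 and 2 lay on slide 1 and were scanned together. Day 28 replicates 3 and 4 and the uninjured arrays lay on slide 2. Day 28 replicate 2 stood apart for some miRNAs, though its mean r was near those of replicates 1 and 4. miR-200b and miR-141, made in epithelial cells, were at -1.35 and -1.51 on replicate 2 and between -5.79 and -5.51 on the other day 28 arrays. Their levels on the day 7 arrays ran from -5.77 to -5.11. The summed signal of the 4 tested epithelial and endocrine miRNAs, in units of the 75th percentile, was 2.21 on that array, 0.201 to 0.223 on the other day 28 arrays and 0.189 to 0.219 at day 7. Nothing in the labels ties each array to a separate animal, so the p-values measure the spread between arrays, and the number of arrays limits their precision. An exact permutation test of 3 arrays against 4 cannot give a two-sided p under 0.0571, so calls come from the model fitted over all miRNAs, at an adjusted p under 0.05.

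Between day 7 and day 28, 55 miRNAs rose (17.1% of those tested) and 53 fell (16.5%), 108 in all (33.6%), while the median difference of all 321 was 0.12. The arrays of both groups did not overlap for 137 miRNAs (42.7%), among them 107 of the 108 called. Of the 108, 93 were detected on all 7 arrays, and 49 differed at least 2-fold. At day 7 itself 88 miRNAs had been higher than in uninjured arteries (27.4%) and 72 lower (22.4%), 160 in all (49.8%). At day 28 54 were still or newly higher (16.8%) and 30 lower (9.35%), 84 in all (26.2%). These splits against uninjured arteries depend on the scaling: without it 122 were higher and 9 lower at day 7 and 60 and 1 at day 28, scaling to the median gave 30 higher and 41 lower at day 28, quantile normalization 38 and 33, and the scanner's total gene signal 30 and 57. Without scaling the arrays to each other 1 miRNA was called higher and 23 lower at day 28 than at day 7, and the median of all tested moved to -0.16. All 108 differences kept their sign there. Rises of a size near that shift are therefore rises relative to the other miRNAs of the array.

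**Figure D1:**
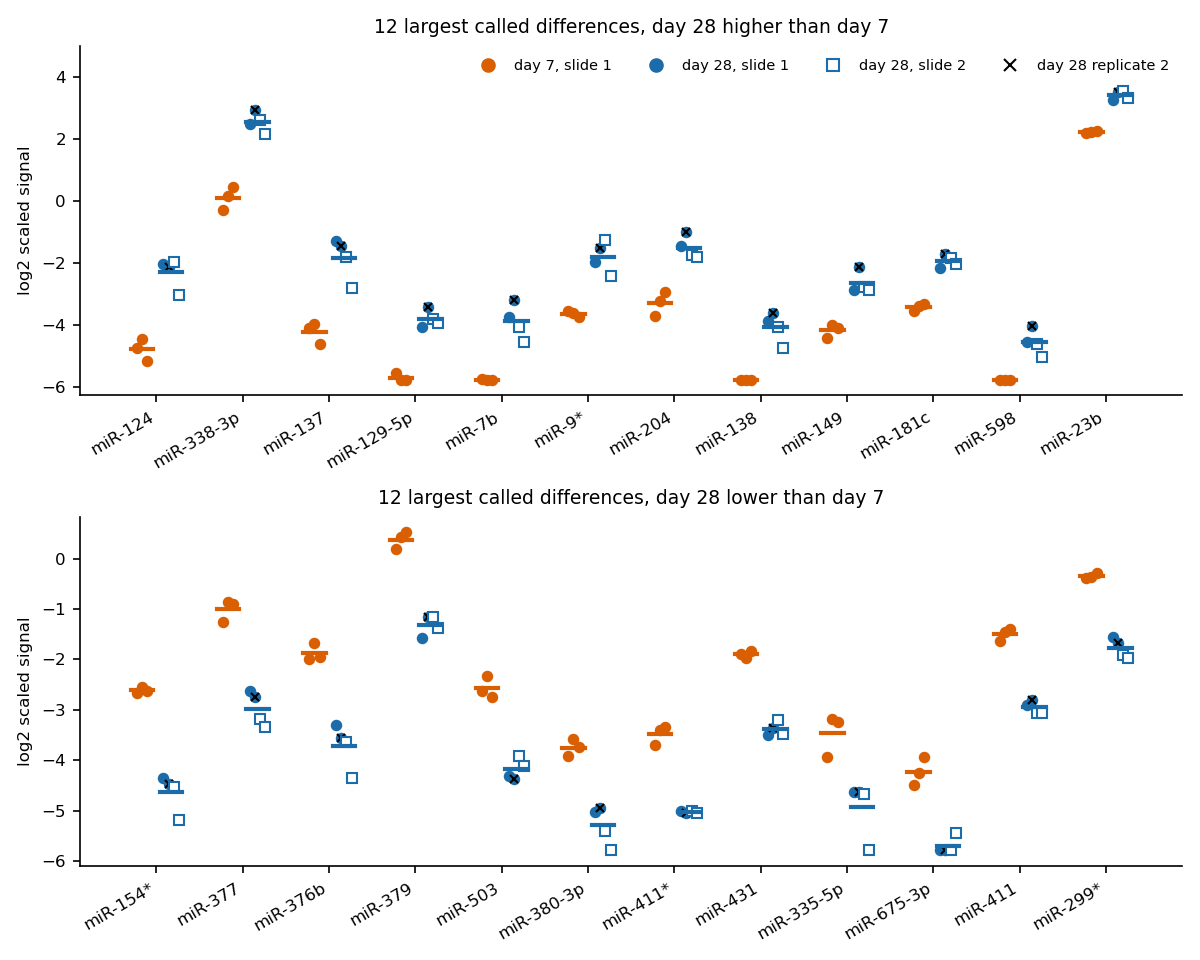
Scaled log2 signal (vertical axis) of the 12 miRNAs with the largest called rise (top) and fall (bottom) from day 7 (orange) to day 28 (blue). Circles are arrays of slide 1, open squares arrays of slide 2, a cross marks day 28 replicate 2, and bars are group means. The 24 miRNAs were chosen among those whose day 7 and day 28 arrays do not overlap. miR-154* has the largest fall, at -2.67 to -2.55 at day 7 and -5.19 to -4.36 at day 28.

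All day 7 arrays lay on slide 1 and all uninjured arrays on slide 2, so slide and injury cannot be told apart between them, except through the day 28 arrays, which lay on both. With slide as a block, 53 miRNAs were higher and 39 lower than uninjured at day 7, and 43 were higher and 12 lower at day 28. The 160 miRNAs called at day 7 without the block were sorted by their calls at day 28. For 69 of them, 33 that had been higher and 36 that had been lower, the level moved back and was no longer called against uninjured at day 28. For 25 it moved back but was still called, 14 higher and 11 lower. For 45 no move was called and the miRNA was still called at day 28, 31 of them higher and 14 lower. For another 19 neither the move nor the day 28 level was called, so their course could not be told at this precision. miR-342-3p alone moved further up, and miR-326 alone went from below the uninjured level to above it. Both comparisons behind these classes use the day 7 arrays, so they are not independent of each other. Among miRNAs not called at day 7, 12 were called between day 7 and day 28.

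**Figure D2:**
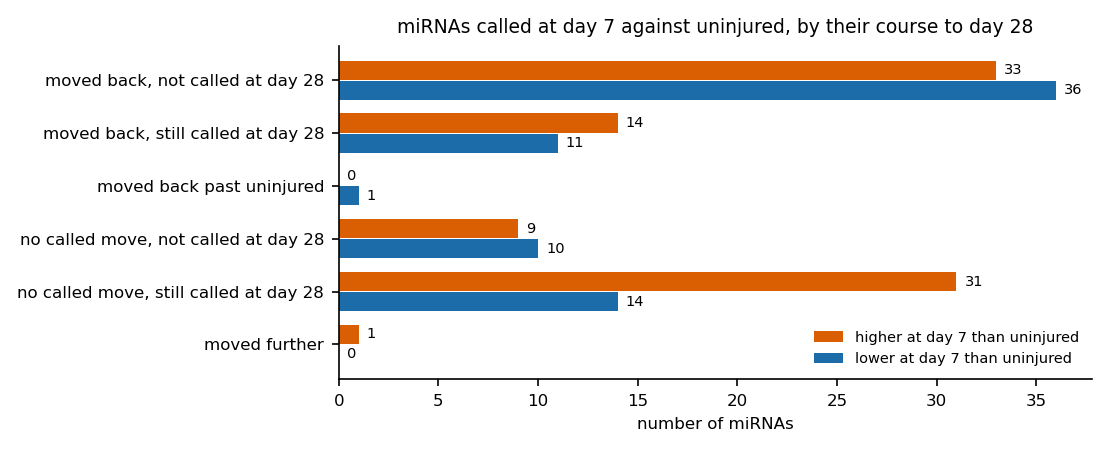
Number of miRNAs (horizontal axis) by course from day 7 to day 28, among the 160 called at day 7 against uninjured. Orange bars are miRNAs that were higher at day 7 and blue bars miRNAs that were lower. Of the 45 miRNAs with no called move and a call at day 28, 31 were higher and 14 lower. The day 7 and uninjured arrays lay on different slides, and with slide as a block 92 miRNAs, not 160, were called at day 7.

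The largest rises were of miRNAs best known from neurons and glia. Of 12 nerve-enriched miRNAs with a probe 10 were tested, with a median difference of 1.78 beside 0.12 for all tested. Of the 10, 6 rose and 0 fell, where 17.1% of all tested miRNAs rose. At day 7, 8 of the 10 had been lower than in uninjured arteries (median -2.36), where 22.4% of all tested were, and 1 had been higher. At day 28 only miR-129-5p was lower and miR-219 higher. Under a block for slide 8 rose, 7 had been lower at day 7, and 0 were called against uninjured at day 28. Summed, their signal ran from 1.68 to 2.12 on the day 7 arrays, from 5.76 to 10.7 on the day 28 arrays and from 4.37 to 9.80 in the uninjured group, in units of the 75th percentile.

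miR-338-3p, abundant in myelinating glia, stood at -0.30, 0.16 and 0.45 on the day 7 arrays and at 2.48, 2.93, 2.61 and 2.18 on those of day 28. Every day 28 array was above every day 7 array, which its choice required, and the gap was larger than the spread within each group. The rise was 5.45-fold (log2 2.45 ± 0.41 SE, adjusted p = 0.000633), and it held within slide 1 without day 28 replicate 2 (log2 2.38, adjusted p = 0.0199). The uninjured arrays, at 0.88, 1.42 and 2.15, lay in between.

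miR-124, the most abundant miRNA of neurons, was at -4.73, -4.45 and -5.15 at day 7 and at -2.02, -2.13, -1.95 and -3.03 at day 28. Replicate 4 was the lowest of day 28 and still above all of day 7. The rise was 5.62-fold (log2 2.49 ± 0.70 SE, adjusted p = 0.0141), and 2.75 within slide 1 without day 28 replicate 2 (adjusted p = 0.0336). Without day 7 replicate 3 it missed the threshold (adjusted p = 0.0562).

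miR-137, a regulator of neuronal maturation, was at -4.08, -3.96 and -4.60 at day 7 and -1.29, -1.44, -1.81 and -2.80 at day 28. The groups did not overlap, but day 28 spread widely and leaving out any of 6 of the 7 arrays ended the call (adjusted p up to 0.0888). The difference was 5.20-fold (log2 2.38 ± 0.76 SE, adjusted p = 0.0265), or 2.25 without day 28 replicate 2 (adjusted p = 0.0568).

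miR-9*, the 3′ arm of a miRNA of neural progenitors, went from -3.55, -3.61 and -3.73 to -1.97, -1.52, -1.26 and -2.40. The lowest day 28 array, replicate 4, was above the highest of day 7, and the rise was 3.59-fold (log2 1.84 ± 0.46 SE, adjusted p = 0.00797). Its other strand, miR-9, was detected on 0 day 7 arrays and 1 day 28 array and was not tested. miR-129-5p, enriched in brain, and miR-138, found at synapses, were at or near the lowest measurable level of -5.79 on the day 7 arrays and rose at least 3.71-fold (adjusted p = 0.0113) and at least 3.29-fold (adjusted p = 0.0117). miR-129-5p reached -4.06 to -3.42 at day 28, below the uninjured arrays at -2.83 to -1.33 (difference from uninjured -1.67, adjusted p = 0.0273, and 0.0782 under a block for slide). The other tested members were not called: miR-129-3p differed by 1.50 (adjusted p = 0.0514), miR-218 by 1.06, miR-128 by 0.75 and miR-219, a miRNA of oligodendrocytes, by -0.17.

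Of the 12 largest rises 6 lay outside that list, among them miR-181c and miR-23b, which are described with their families, and all 6 had been lower than uninjured at day 7. miR-204, known from the retina and the choroid plexus, was at -3.70, -3.23 and -2.94 at day 7 and at -1.44, -1.0, -1.74 and -1.80 at day 28. All day 28 arrays lay above all day 7 arrays, close to the uninjured arrays at -1.83 to -1.24. The rise was 3.47-fold (log2 1.80 ± 0.29 SE, adjusted p = 0.000524). miR-7b, abundant in neuroendocrine tissue, rose at least 3.71-fold from levels near the lowest measurable one (adjusted p = 0.0070). miR-149 rose 2.86-fold (log2 1.51 ± 0.26 SE) and miR-598 at least 2.35-fold, the latter not called without day 7 replicate 2 or 3 or day 28 replicate 2 (adjusted p up to 0.0651). The background correction matters for the dimmest of them: under normexp, a model of signal over local background, miR-129-5p, miR-138, miR-7b and miR-598 differed by 0.23, 0.18, 0.22 and -0.02 and were not called.

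The largest falls were of miRNAs from the Dlk1-Dio3 region of chromosome 12, an imprinted locus whose miRNAs are made from the maternal chromosome, mainly in embryonic and regenerating tissue and in brain. Of 72 such miRNAs with a probe 47 were tested, with a median difference of -0.95. Of the 47, 28 fell and 0 rose, where 16.5% of all tested miRNAs fell. At day 7, 23 had been higher than uninjured, where 27.4% of all tested were, and 2 lower. At day 28 1 was higher and 2 lower. Under a block for slide 8 were higher and 0 lower at day 7 (median 0.31, and 0.56 without it) and 0 were called at day 28. Of the 47, 37 were detected on all 7 arrays, and 23 of these fell. The others entered the test through 1 of the groups, mostly day 7, so a difference of theirs was built into the choice. Without day 28 replicate 2 27 fell, with slide as a block 15, and within slide 1 without replicate 2 5. Without scaling 14 fell and 0 rose. Their summed signal was 12.5 to 14.0 at day 7 and 6.17 to 7.89 at day 28, in units of the 75th percentile, and 7.11 to 13.5 in the uninjured group.

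miR-377 was at -1.26, -0.86 and -0.90 on the day 7 arrays and at -2.62, -2.75, -3.18 and -3.35 at day 28. Every day 7 array lay above every day 28 array, which its choice required. The uninjured arrays, at -3.31, -3.39 and -2.83, were near those of day 28 (difference from uninjured 0.20, not called). The decrease was 3.91-fold (log2 -1.97 ± 0.23 SE, adjusted p = 8.18e-05), and -1.61 within slide 1 without replicate 2 (adjusted p = 0.0382).

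miR-379, the first miRNA of its large cluster, fell from 0.19, 0.43 and 0.52 to -1.58, -1.16, -1.15 and -1.37. Both groups had a narrow spread, and the 3.24-fold decrease (log2 -1.70 ± 0.22 SE, adjusted p = 0.000137) left the level at that of the uninjured arrays (-1.67, -1.60 and -0.83). miR-411, its neighbour, fell 2.74-fold (log2 -1.46 ± 0.21 SE).

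miR-154* had the largest decrease of all, from -2.67, -2.55 and -2.62 to -4.36, -4.47, -4.53 and -5.19. The day 7 arrays lay close to each other and all above day 28, where replicate 4 was the lowest. It fell 4.07-fold (log2 -2.03 ± 0.37 SE, adjusted p = 0.00105), with -1.75 within slide 1 without replicate 2 (adjusted p = 0.101). miR-376b, miR-411*, miR-431 and miR-299* fell 3.59-fold, 2.91-fold, 2.81-fold and 2.70-fold, and miR-380-3p at least 2.91-fold. miR-494 moved back only in part: it was at -1.73, -1.06 and -1.82 at day 7, at -2.01, -3.30, -2.65 and -2.86 at day 28, and still above uninjured then (difference from uninjured 0.92, adjusted p = 0.0465, and 0.152 under a block for slide). Not all of the region moved: miR-433, miR-370 and miR-487b differed by -0.19, -0.12 and -0.19, none called.

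Another 2 miRNAs from imprinted loci were among the 12 largest falls. miR-675-3p, cut from the imprinted H19 RNA, was at -4.50, -4.25 and -3.94 at day 7 and detected on 0 of 4 arrays at day 28. It was at least 2.66-fold lower at day 28 (adjusted p = 0.000125), but not called under normexp (-0.30); nor was miR-542-3p (-0.26). miR-335-5p, encoded in an intron of Mest, was at -3.93, -3.18 and -3.24 at day 7 and at -4.63, -4.63, -4.66 and -5.79 at day 28, the lowest value being the floor on replicate 4. It was at least 2.77-fold lower (adjusted p = 0.0191), a call that was lost by leaving out any of 3 arrays (up to an adjusted p of 0.0808) and under a block for slide (log2 -1.18, adjusted p = 0.129).

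The cluster of miR-322, miR-503 and miR-542 on the X chromosome, induced in differentiating muscle cells, had 11 members with a probe and 6 tested. Of the 3 detected on all 7 arrays, miR-322 and miR-503 fell and miR-542-5p differed by -0.26. The other 3, miR-542-3p, miR-450a-5p and miR-450b-3p, were called lower too, but they entered the test through day 7, so a fall of theirs was built into the choice. All 5 called members had been higher than uninjured at day 7, and only miR-503 still was at day 28. miR-503 was at -2.63, -2.33 and -2.75 at day 7 and at -4.31, -4.38, -3.92 and -4.11 at day 28, against -5.77, -5.59 and -5.42 in uninjured arteries. The 3 groups did not overlap, and day 28 lay between the others. It fell 3.05-fold (log2 -1.61 ± 0.15 SE, adjusted p = 1.06e-05) and stayed above uninjured (difference 1.41, adjusted p = 1.15e-05). miR-322 fell from 1.63, 1.65 and 1.69 to 0.33, 0.67, 1.24 and 1.07, with both slide 1 arrays of day 28 below both of slide 2, and miR-542-3p was at least 2.47-fold lower. miR-450a-5p and miR-450b-3p were detected at day 7 and on no array of day 28 or of uninjured arteries, near the floor, and with a floor 2 times as high their differences were 0.

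**Figure D3:**
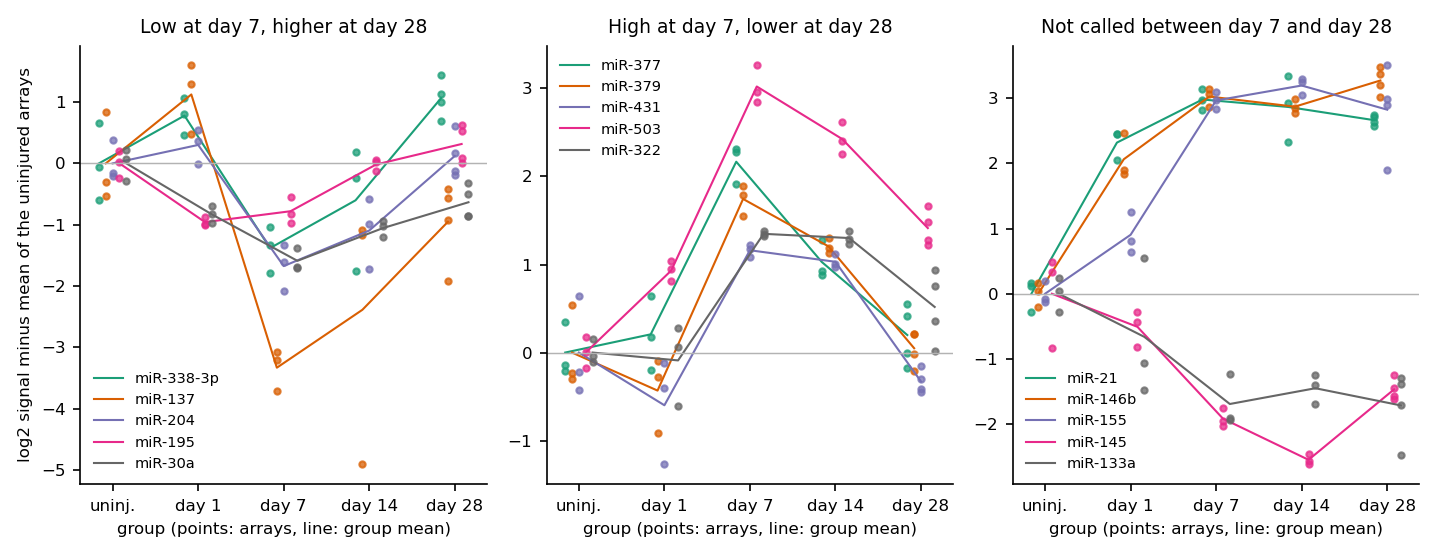
Level of 15 miRNAs relative to the mean of the uninjured arrays (log2, vertical axis) in uninjured arteries and at days 1, 7, 14 and 28. Points are arrays and lines join group means. miR-338-3p and miR-204 are below 0 at day 7 and above 0 at day 28, miR-377, miR-379 and miR-431 are back near 0 at day 28, and miR-21, miR-146b and miR-155 are at 2.67, 3.27 and 2.83.

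The seed of miR-322 was shared by miRNAs that rose, fell or were not called. miR-195 and miR-497, encoded near each other on chromosome 11 and known to restrain the cell cycle, have the seed of miR-322. miR-195 rose from 2.39, 2.25 and 2.67 to 3.23, 3.31, 3.75 and 3.85, so that all day 28 arrays were above all day 7 arrays (2.14-fold, log2 1.1 ± 0.17 SE, adjusted p = 0.000327). miR-497 rose 1.94-fold (log2 0.95 ± 0.16 SE). Both had been lower than uninjured at day 7, which was not called under a block for slide (miR-195 -0.26, adjusted p = 0.456; miR-497 -0.04, adjusted p = 0.926). The other relatives with this seed, miR-15a, miR-15b and miR-16, differed by 0.11, 0.11 and -0.08 and were not called, while miR-322 fell 1.78-fold (adjusted p = 0.0113).

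The miR-30 family, which is lowered when epithelial cells turn mesenchymal, rose nearly as a whole. Of 9 tested members 8 rose and 0 fell (median 0.69), where 17.1% of all tested miRNAs rose. At day 7, 8 of the 9 had been lower than uninjured, where 22.4% of all tested were. Under a block for slide 7 rose and 5 had been lower. The 9 tested include the other strands miR-30a*, miR-30b*, miR-30c-2* and miR-30e*, which are cut from the same precursors as members also counted. miR-30c went from -1.65, -1.64 and -1.35 to -0.56, -0.45, -0.48 and -0.62, with no overlap and a narrow spread at day 28 (2.02-fold, log2 1.02 ± 0.13 SE, adjusted p = 0.000125). miR-30a rose 1.94-fold (log2 0.96 ± 0.17 SE) from 2.01, 2.03 and 2.34 to 2.87, 2.86, 3.39 and 3.21 and was still below uninjured at day 28 (difference -0.63, adjusted p = 0.0133, and 0.115 under a block for slide). The member that was not called, miR-30e*, differed by 0.36 (adjusted p = 0.104). Closely related family members may share probe signal, which was not tested.

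The miR-23, miR-27 and miR-24 clusters, 2 copies of a unit with roles in vessel growth, showed 6 rises and 0 falls among 7 tested (median 0.63). Of all tested miRNAs 17.1% rose, and 22.4% had been lower than uninjured at day 7, as had 6 of these 7. With a block for slide, 4 rose and 2 had been lower. miR-23b rose from 2.21, 2.22 and 2.27 to 3.27, 3.52, 3.55 and 3.34 (2.28-fold, log2 1.19 ± 0.16 SE, adjusted p = 0.000137) and then equalled its uninjured level (difference 0.01). Of the miR-29 family, which represses collagen and elastin genes, 3 of 5 tested rose (median 0.83). miR-29a went from 4.59, 4.60 and 4.59 to 5.19, 5.24, 5.63 and 5.63 and miR-29c from 2.00, 1.87 and 1.98 to 2.74, 2.85, 2.88 and 2.75. Neither overlapped between the groups, and the rises were 1.78-fold and 1.81-fold. Under quantile normalization, which forces all arrays to 1 distribution, miR-29a differed by 0.22 and was not called. miR-26a and miR-26b, both tested members of their family, rose 1.67-fold and 1.51-fold.

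These family rises hold relative to the other miRNAs of the arrays. Without scaling 0 members of the miR-30, miR-29, miR-26 and miR-23, miR-27 and miR-24 lists were called, and the medians of those lists were 0.36, 0.50, 0.34 and 0.30 beside -0.16 for all tested miRNAs.

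Single members of other families also rose. miR-181c, expressed in brain and lymphocytes, was at -3.56, -3.39 and -3.32 at day 7 and at -2.15, -1.71, -1.84 and -2.04 at day 28 (2.80-fold, log2 1.49 ± 0.14 SE, adjusted p = 1.06e-05). Its choice required that the groups not overlap. At day 28 miR-181c was not called against the uninjured arrays at -1.84 to -1.72 (difference -0.14). miR-181a differed by 1.05, of which much lay in day 28 replicate 2 (-0.83 there and -2.68 to -2.28 on the others). Without that array its difference was 0.63 (adjusted p = 0.0137), and it was not called when any day 7 array was left out (highest adjusted p = 0.0851). miR-99a and miR-100, which share a seed, rose 1.68-fold and 1.66-fold, which were no longer called under a block for slide (adjusted p = 0.0510 and 0.0701). miR-10b, read from the HoxD locus, rose 1.68-fold (log2 0.75 ± 0.22 SE, adjusted p = 0.0158), although it had not differed from uninjured at day 7 by the test (0.20), and was higher than uninjured at day 28 (0.94, adjusted p = 0.0066). With slide as a block it was not called (adjusted p = 0.133). let-7b, of a family that accumulates as cells stop dividing, rose 1.51-fold but leaving out any of 4 arrays ended the call (adjusted p up to 0.108).

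Falls were also called outside the imprinted and X-linked clusters. Of the miR-17-92 cluster and its paralogs, which promote proliferation, 3 of 7 tested members fell and 0 rose (median -0.18). Of all tested miRNAs 16.5% fell. miR-18a fell from -0.56, -0.58 and -0.88 to -1.82, -1.35, -1.36 and -1.42 (1.76-fold, log2 -0.82 ± 0.17 SE, adjusted p = 0.00226), miR-19a 1.78-fold and miR-19b 1.30-fold. miR-18a did not overlap between the groups and was no longer called against uninjured, whereas miR-19a and miR-19b were still higher than uninjured at day 28. Under a block for slide 1 of the 7 fell, miR-18a, while miR-19a (-0.52, adjusted p = 0.0585) and miR-19b (-0.25, adjusted p = 0.241) were not called, nor was miR-19a against uninjured at day 28 (0.59, adjusted p = 0.0520). Leaving out any of 6 arrays ended the call of miR-19b (adjusted p up to 0.110). miR-92a, of the same cluster, was at 2.39 on day 28 replicate 2 and at 1.20 to 1.72 on the others and differed by 0.20. Of miR-199 and miR-214, expressed in mesenchymal cells, 3 of 5 fell: miR-214 from 1.64, 1.63 and 1.57 to 0.90, 0.72, 0.95 and 1.13 (1.61-fold, adjusted p = 0.0107), miR-199a-3p 1.38-fold and miR-199a-5p 1.49-fold. The call of miR-199a-5p ended without any of 4 arrays (adjusted p up to 0.0861) and under a block for slide (log2 -0.37, adjusted p = 0.210). miR-34c, of the p53-responsive miR-34 family, fell 2.01-fold (log2 -1.01 ± 0.22 SE, adjusted p = 0.00326) and was still above uninjured at day 28 (0.89), while its relative miR-34a differed by only 0.16 ± 0.19 SE.

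**Figure D4:**
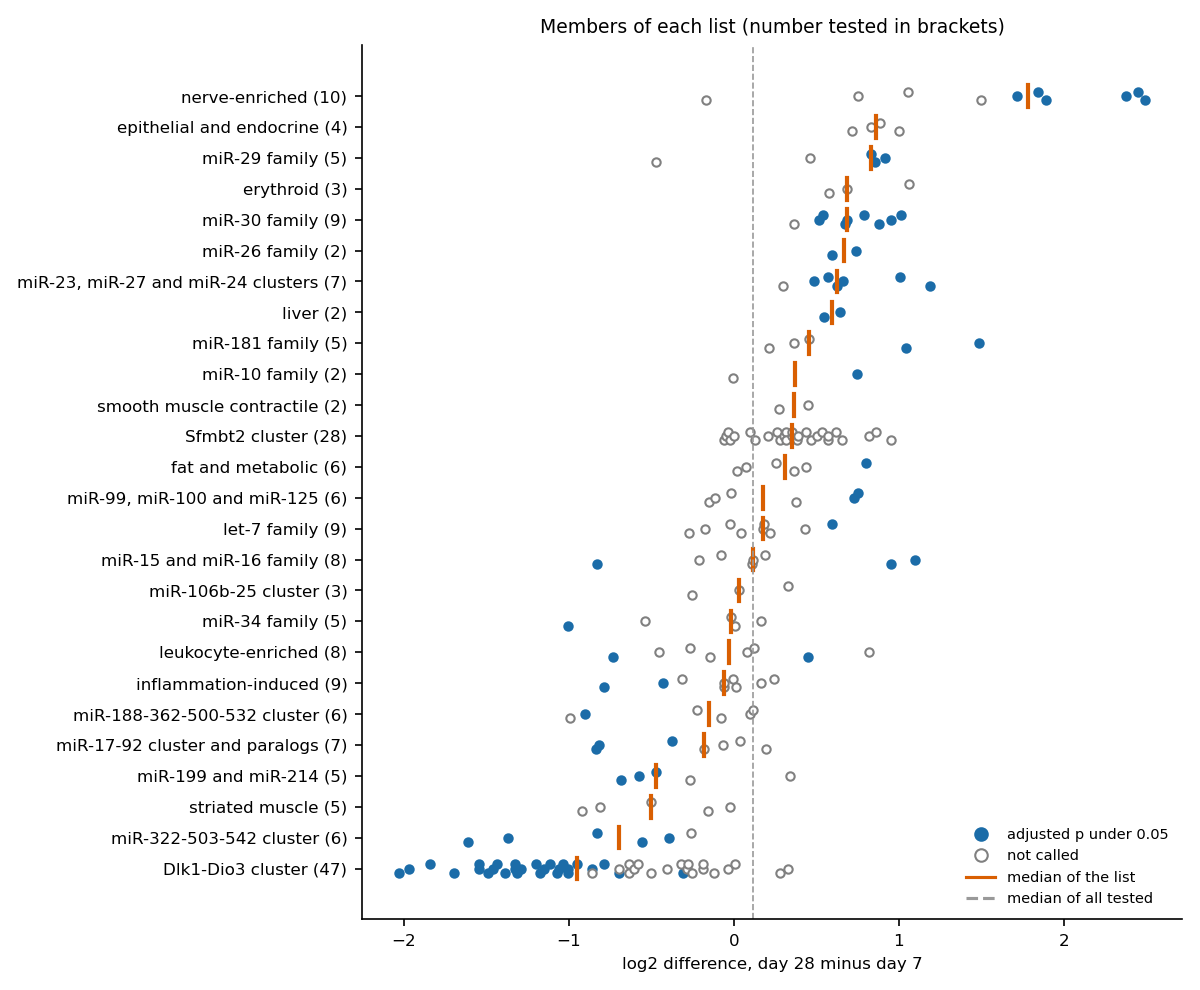
Difference of day 28 minus day 7 (log2, horizontal axis) of every tested member of each list with at least 2 of them. Filled points passed the test, open points did not, orange bars are list medians and the dashed line is the median of all tested miRNAs at 0.12. The nerve-enriched list lies farthest to the right, with a median of 1.78, and the Dlk1-Dio3 cluster farthest to the left, with -0.95.

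The induced miRNAs of inflammation had mostly not gone back. Of 9 tested, 7 were higher than uninjured at day 7 and 7 at day 28, where 27.4% and 16.8% of all tested miRNAs were. In between 2 fell, where 16.5% of all tested miRNAs fell, and 0 rose (median -0.06). Under a block for slide 6 were higher at each time and 0 fell or rose in between. miR-21, which promotes survival of smooth muscle cells and fibroblasts, was at 6.17, 6.50 and 6.33 at day 7, at 6.07, 5.99, 5.93 and 6.09 at day 28 and at 3.52, 3.47 and 3.07 in uninjured arteries. All day 28 arrays were slightly below all day 7 arrays and far above uninjured. Its difference between the days was not called (log2 -0.32 ± 0.20 SE, adjusted p = 0.286), and at day 28 it was 6.35-fold above uninjured (adjusted p = 6.43e-07). Its other strand, miR-21*, fell 1.72-fold (adjusted p = 0.0120) and was still higher than uninjured. The fall of miR-21* was not called under normexp (log2 -0.33, adjusted p = 0.369) or under a block for slide (-0.76, adjusted p = 0.0520).

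miR-146b, a brake on NF-kappaB signalling with the seed of miR-146a, was at -1.99, -1.71 and -1.79 at day 7, at -1.47, -1.37, -1.65 and -1.83 at day 28 and at -4.82, -5.05 and -4.70 in uninjured arteries. The days overlapped, and both lay far above uninjured (difference at day 28 3.27). miR-146a was 5.45-fold above uninjured at day 7 and 6.12-fold at day 28, and the difference between the days was 0.17 ± 0.16 SE. miR-221, which drives smooth muscle proliferation, differed by 0.02 ± 0.22 SE. miR-132, induced in endothelial cells and fibroblasts, fell 1.34-fold (adjusted p = 0.0458), a call ended by leaving out any of 6 arrays (adjusted p up to 0.108) and under a block for slide (adjusted p = 0.0974).

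Leukocyte-enriched miRNAs likewise stayed above uninjured. Of 8 tested, 6 were higher at day 7 and 6 at day 28, where 27.4% and 16.8% of all tested miRNAs were. In between 1 rose and 1 fell (median -0.03), where 17.1% of all tested miRNAs rose and 16.5% fell. Summed, their signal ran from 15.8 to 20.6 on the day 7 arrays, from 12.3 to 16.4 on the day 28 arrays and from 3.03 to 3.16 in uninjured arteries, in units of the 75th percentile. miR-223, of neutrophils and monocytes, fell from 3.88, 3.61 and 3.42 to 2.83, 2.90, 2.80 and 3.10, with no overlap (1.66-fold, log2 -0.73 ± 0.16 SE, adjusted p = 0.00374). Against uninjured arteries, at 0.47, 0.59 and 0.33, it was still 5.44-fold higher at day 28. miR-155, of activated macrophages and lymphocytes, was at -0.90, -1.05 and -0.79 at day 7 and at -1.98, -0.37, -0.97 and -0.88 at day 28, a wide overlap, and 7.09-fold above uninjured at day 28. miR-342-3p, a miRNA of lymphoid and myeloid cells, rose 1.36-fold (adjusted p = 0.0323), but leaving out any of 5 arrays, day 28 replicate 2 among them, ended the call (adjusted p up to 0.129).

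miR-142-3p, made only in blood cells, depended on day 28 replicate 2. It was at 0.85, 0.88 and 0.55 at day 7 and at 0.26, 1.52, -0.27 and -0.30 at day 28, the second value being replicate 2. Over all arrays it differed by -0.46 ± 0.35 SE (adjusted p = 0.378), and without that array it fell by 0.86 on the log2 scale (adjusted p = 0.0063). Within slide 1 without that array miR-142-3p differed by -0.50. With slide as a block and all arrays it differed by 0.13, not called (adjusted p = 0.869). miR-150, a miRNA of mature lymphocytes, was at -3.49 on the same array and between -5.79 and -5.12 on the others. Whether epithelial or lymphoid tissue was present in the sample of that array was not tested.

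The contractile smooth muscle miRNAs stayed low. miR-145, which with miR-143 maintains the contractile state, was at -3.74, -3.46 and -3.66 at day 7, at -3.27, -3.15, -3.31 and -2.95 at day 28 and at -1.21, -1.37 and -2.53 in uninjured arteries. All day 28 arrays were above all day 7 arrays and below all uninjured ones, but the difference between the days was not called (log2 0.45 ± 0.26 SE, adjusted p = 0.217). miR-143 went from 0.56, 0.78 and 0.55 to 0.87, 0.98, 0.84 and 0.93 and likewise was not called (0.28 ± 0.21 SE), and both were lower than uninjured at day 28 by -1.47 and -1.39. The muscle miRNAs miR-133a and miR-1, which skeletal and heart muscle also make, differed by -0.02 and -0.81 between the days. Of 5 tested striated muscle miRNAs 0 were called, where 33.6% of all tested miRNAs were. Against uninjured 1 of the 5, miR-133a, was lower at day 7 and 3 at day 28, or 0 under a block for slide. miR-133a differed from uninjured by -1.69 at day 7 and -1.72 at day 28. miR-126-3p, the main endothelial miRNA, differed by -0.04 ± 0.15 SE. Of the erythroid miRNAs, which mark retained blood, 0 of 3 were called, where 33.6% of all tested miRNAs were. With 3 members this says little about the list, whose median difference was 0.69. The summed signal of the list, 15.1 to 27.7 at day 7 and 25.0 to 41.6 at day 28, overlapped. Of 6 tested miRNAs of fat and metabolism 1 rose, miR-193b, 1.74-fold, where 17.1% of all tested miRNAs rose. Leaving out any of 3 arrays ended that call (adjusted p up to 0.0840). Of the 6, 3 were still below uninjured at day 28, or 1 under a block for slide.

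Since 2 of the day 28 arrays shared a slide with day 7, the comparison was repeated without any difference of slide. With slide as a block, which here equals the difference between day 28 replicates 1 and 2 and day 7, 81 miRNAs were called, 47 higher and 34 lower, 73 of them among the 108. Fitted on slide 1 alone, 69 were called, 36 higher and 33 lower, 60 of them among the 108. Without day 28 replicate 2, 52 rose and 59 fell, and 103 of the 108 stayed called. Within slide 1 without it, a single day 28 array against 3 of day 7, assumed to vary like the other groups, 17 rose and 19 fell, and 30 were shared. Of the 63 called miRNAs in the set described by rule, 13 were not called with slide as a block: miR-193b, miR-342-3p, let-7b, miR-99a, miR-100 and miR-10b among the rises and miR-380-3p, miR-335-5p, miR-21*, miR-132, miR-199a-5p, miR-19a and miR-19b among the falls. In each of these fits all 108 differences kept their sign, as had to be so for the 107 whose groups do not overlap. Over all arrays, with slide as a block, without day 28 replicate 2 and within slide 1 without it, 28 were called each time, 15 higher and 13 lower. The 15 were miR-124, miR-338-3p, miR-7b, miR-9*, miR-204, miR-138, miR-149, miR-181c, miR-23b, miR-331-3p, miR-326, miR-30c, miR-101a, miR-29c* and miR-29c. The 13 were miR-377, miR-379, miR-503, miR-675-3p, miR-411, miR-299*, miR-542-3p, miR-299, miR-224, miR-34c, miR-135a*, miR-362-5p and miR-18a. These fits share arrays, so a call in each of them is not repeated evidence. Among the 13, miR-542-3p, whose fall was built into its choice through day 7, and miR-675-3p were not detected on every day 28 array. Under normexp neither was called (-0.26 and -0.30), nor were miR-138, miR-7b and miR-29c* of the 15 (0.18, 0.22 and 0.45).

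**Figure D5:**
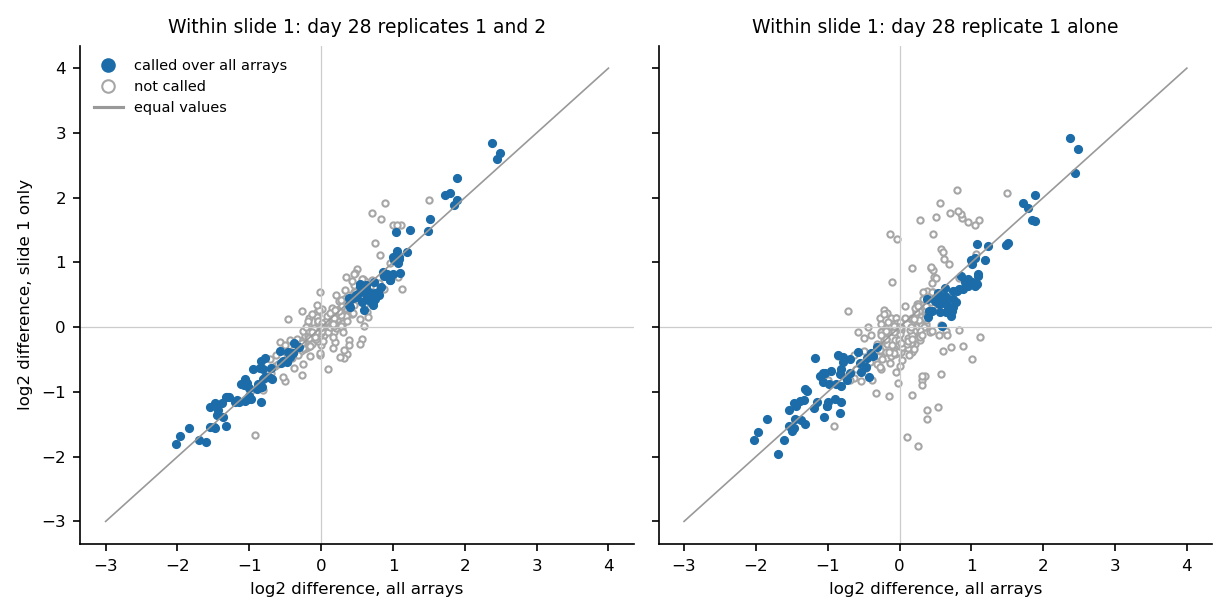
Difference of day 28 minus day 7 over all arrays (log2, horizontal axis) against the same difference within slide 1 (log2, vertical axis), with day 28 replicates 1 and 2 (left) or replicate 1 alone (right). Each point is a miRNA, filled where called over all arrays, and the line marks equal values. All 108 filled points have the same sign on both axes, as had to be so for the 107 whose groups do not overlap. Some open points of day 28 replicate 1 lie far from the line.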

How the data were processed

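Arteries gave total RNA, which was tagged with Cy3 at its 3′ end and hybridised to a 1-colour Agilent mouse miRNA array (Sanger release 12), per the labels' protocols. The deposited files hold spot intensity values with the scanner's marks for spots above background and outlying spots, made with Agilent Feature Extraction 9.5.1.1 per the file headers. The series' value table, deposited by the authors as linear intensity, equalled the scanner's total gene signal within 0.1% for 100% of values, so its scale is linear, uncentred and of 1 direction (1 channel). Its column medians were 16.6, 11.5 and 11.0 at day 7, 9.00, 16.1, 11.6 and 7.62 at day 28, and 3.81, 5.36 and 7.93 in the uninjured group.

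Processed signals of spots without an outlier mark were averaged per probe, divided by the array's 75th percentile over the 395 probes well above background on all 16 arrays, floored at 0.0181 (log2 -5.79, the lowest level used) and put on the log2 scale. A miRNA was read from its brightest probe, and probes of 1 miRNA were otherwise used only in the mean over probes. It was detected where at least 50% of spots were well above background, and tested where all arrays of 1 group or more detected it (321 of 611). One linear model over the 5 groups of the series was fitted in limma 3.58.1 (R 4.3.3), with moderated statistics and Benjamini-Hochberg adjustment over all tested miRNAs. A fold is written as "at least" where the lower group touched the floor or detected the miRNA on no array. It then sets the mean of the higher group against the mean of, per array, the higher of the signal and the lowest signal among probes well above background. The fit was tested on simulated data. The alternatives were other scalings, background, floor, filters, slide and replicate blocks, and each array left out. The number of arrays limits the precision.

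The miRNAs described are, per direction, the 12 largest called differences without overlap of the groups, the 8 largest at day 7 against uninjured, and, per list, the 4 members (or fewer) of smallest p. The members and lists were chosen with earlier results of these data known. miR-101a, miR-128, miR-133a, miR-135a*, miR-15b, miR-16, miR-218, miR-219, miR-221, miR-224, miR-30b, miR-30e, miR-30e*, miR-326, miR-331-3p, miR-370, miR-376c, miR-433, miR-487b, miR-494, miR-455 and miR-340-5p were added after their values were seen. Names are those of the array design.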

Additional observations from a re-analysis of the deposited data

Results flagged for a closer look

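A difference between day 28 and day 7 is also a difference of the effects of injury at both times against the same uninjured arrays, and 108 miRNAs passed that test in the model over all miRNAs.

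Within the 4 day 28 arrays, 8 of 112 miRNAs tested had 1 array farther from the others than Dixon's 95% critical ratio allows, where chance gives about 1 in 20. The ratio is the gap to the nearest array over the whole range. miR-124 was lowest on replicate 4 (ratio 0.831) and miR-149 highest on replicate 2 (0.851). miR-335-5p was lowest on replicate 4 (0.970), where it lay at the floor. miR-675-3p was highest on replicate 4 (ratio 1), but not well above background there, and the other arrays were all at the floor. miR-200b and miR-141 were highest on replicate 2 (0.938 and 0.956). miR-18a and miR-106b were lowest on replicate 1 (0.863 and 0.862). The part of these arrays in the comparison is given by the values without each of them, and its source was not tested.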

How the results depend on the processing

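Of 63 called miRNAs described by rule, 50 were called without each of the 7 arrays in turn. Leaving out 1 array gave 46 to 66 higher and 39 to 59 lower for day 28 against day 7, and 19 to 30 lower for day 28 against uninjured (19 without uninjured replicate 2 or 3). For day 28 against day 7, the counts higher and lower were 1 and 23 without scaling, 39 and 35 with normexp, 48 and 32 among miRNAs detected on all 16 arrays, 47 and 34 with slide as a block, 36 and 33 within slide 1, 17 and 19 within slide 1 without day 28 replicate 2, 14 and 25 with slide as a block without it, and 20 and 29 at a log2 difference of at least 1. For day 7 against uninjured they were 122 and 9 without scaling, 50 and 60 with normexp, 57 and 56 on all 16 arrays, 53 and 39 with slide as a block, 61 and 25 without day 28 replicate 2 as well, and 55 and 41 at a log2 difference of at least 1. For day 28 against uninjured they were 30 and 41 with median scaling, 60 and 1 without scaling, 31 and 46 with normexp, 30 and 57 with total gene signal, 33 and 46 in the value table, 43 and 12 with slide as a block, 50 and 11 without day 28 replicate 2 as well, 31 and 13 with only the groups compared, and 21 and 13 at a log2 difference of at least 1. The cause was not tested, except that fewer miRNAs or arrays enter some of these fits. The difference of miR-598 turned to -0.020 with normexp (adjusted p = 0.951).

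Whether the replicate numbers pair the arrays was not tested. The deviations of same-numbered day 7 and day 28 arrays correlated at 0.56, 0.34 and -0.14 across miRNAs. Arrays of different numbers were not set beside them. With the replicate block 52 were higher and 38 lower between the days, and with the replicate block and slide together 25 and 24. Against uninjured the latter gave 33 and 12 at day 7 and 19 and 2 at day 28. The signal over background limits the dimmest miRNAs, whose falls end at the floor.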

Other observations

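Of the 108 called miRNAs, 27 belonged to no list, 18 higher and 9 lower at day 28. miR-224 had not been called at day 7 (0.40 above uninjured) and was below uninjured at day 28: it was at -2.35, -2.23 and -2.18 at day 7, at -3.63, -3.14, -3.24 and -3.22 at day 28 and at -2.53, -2.66 and -2.77 in uninjured arteries. The groups of both days did not overlap, and the fall was 2.08-fold (log2 -1.06 ± 0.17 SE, adjusted p = 0.000576). miR-326 went the other way, from -3.95, -3.88 and -3.84 to -2.83, -2.60, -3.08 and -2.84, past the uninjured arrays at -3.41, -3.25 and -3.23 (2.08-fold, adjusted p = 0.000213). Under a block for slide neither was called against uninjured at day 28 (miR-224 -0.57, adjusted p = 0.0784; miR-326 0.34, adjusted p = 0.205). miR-331-3p, miR-101a and miR-455 rose 2.11-fold, 1.99-fold and 2.13-fold back to levels not called against uninjured. miR-340-5p fell 1.75-fold and was still 1.49 log2 units above uninjured at day 28 (adjusted p = 3.72e-05).

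The array also carries 98 probes not for mouse miRNAs. Between 7 and 16 of them were detected per array at day 7, 7 to 13 at day 28 and 5 to 7 in uninjured arteries, and 0 were detected on every day 7 or every day 28 array and on no uninjured one.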
